A study of Homo sapiens with 6 samples.

Results

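The 38 genes described here mark the proximal tubule, the part of the nephron that takes most filtered sugar, amino acids, phosphate, bicarbonate and protein back into the blood. They were chosen by name, as endocytic receptors, brush border enzymes, solute transporters, metabolic enzymes and kidney transcription factors, and all 38 had a row among the 20442 genes of the expression table. A member was counted as kept in the cell line when its FPKM (fragments scaled to transcript length and to the mapped fragments of the library), averaged over all 6 libraries, was 1 or more, and as lost below that. By this rule 23 members were kept and 15 were lost.

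Every library came from HK-2, a line of immortalized epithelial cells from the human proximal tubule, so no other kidney cell is present by design. There were 3 libraries labelled control, from cells given a control vector, and 3 labelled HNRNPF overexpression, from cells given the gene of the RNA-binding protein hnRNP-F. The methods describe lentivirus for both groups, while the label of the control group names a plasmid. Culture lasted 72 h with 30 mM glucose or 30 mM mannitol, the osmotic control, and the labels do not say which medium each library had. The study calls the 3 libraries of a group biological replicates. The methods describe parallel wells for each group, and the labels do not say whether the libraries came from separately infected cultures. The p-values therefore cover the spread between these libraries, and may not cover the spread between separate infections.

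In the kidney, the first segment of the proximal tubule works through a dense brush border. Its apical membrane carries sodium-coupled carriers, the receptors megalin and cubilin that retrieve filtered protein, and peptidases that split filtered peptides. The same cells make glucose from lactate and amino acids, and transcription factors such as HNF4A hold the mature program. Proximal tubule cells in culture are known to lose parts of this program while epithelial and early kidney genes stay on.

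The targeted gene was read first, as a check of the labels. HNRNPF was at 555.18, 563.36 and 588.68 FPKM in the libraries labelled control and at 322.83, 349.84 and 320.8 FPKM in those labelled overexpression. Every library labelled overexpression was below every control library, which goes against the label (log2 difference -0.78, limma adjusted p = 1.07e-04). The methods give the delivered gene a gene ID that differs from that of this row (3185). Directions below are therefore those of the libraries as labelled, and every rise and fall would turn if the labels were exchanged. Neither an exchange of labels nor whether this row counts the delivered copy was tested. Each library had 12396 to 12462 genes at 1 FPKM or more. Across the 12461 genes tested, Pearson's r on the log2 scale lay between 0.989 and 0.994 for libraries of a group and between 0.978 and 0.985 for libraries of different groups, as a description over genes, which are not independent replicates.

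Among the 15 lost members were receptors, carriers and a regulator typical of the proximal tubule. LRP2, which encodes the endocytic receptor megalin, and SLC22A6 and SLC22A8, the basolateral organic anion transporters OAT1 and OAT3, were listed at 0 in all 6 libraries. CUBN, which encodes cubilin, the partner receptor of megalin, was between 0.01 and 0.06 FPKM. HNF4A, a master regulator of the mature proximal tubule, was listed at 0 in 4 libraries and reached 0.06 FPKM in 1. SLC34A1, the main apical phosphate carrier, was between 0.19 and 0.43 FPKM, and AQP1, the water channel of the segment, between 0.36 and 0.71 FPKM. In bulk RNA, fewer cells of a type and less RNA per cell cannot be told apart.

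**Figure D1:**
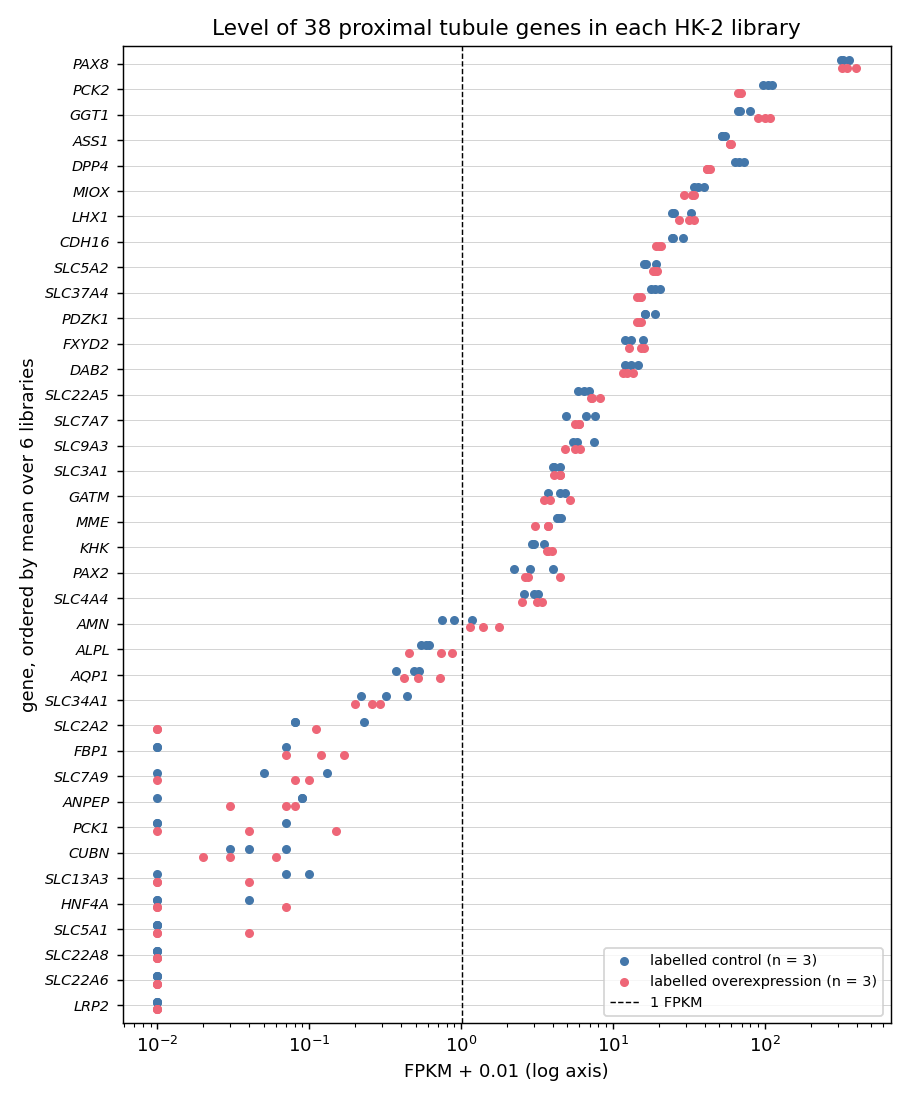
FPKM plus 0.01 on a log axis for each of the 38 genes, with 1 point per library, 3 labelled control and 3 labelled overexpression, and a dashed line at 1 FPKM. The 23 kept genes run from AMN, at a mean of 1.18 FPKM, to PAX8, at a mean of 344 FPKM, and 3 genes sit at 0 in every library.

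The losses ran through most roles. Of 5 phosphate, carnitine and organic acid transporters, 1 was kept, SLC22A5, the carnitine carrier OCTN2. Of 3 sugar transporters, 1 was kept, SLC5A2, while SLC5A1, the high-affinity sodium-glucose carrier SGLT1, was listed at 0 in 5 libraries and SLC2A2, the basolateral glucose carrier GLUT2, reached 0.22 FPKM. Of 4 genes of glucose production, FBP1 and PCK1, the fructose bisphosphatase and the cytosolic PEP carboxykinase, were lost, at no more than 0.16 FPKM in any library. ANPEP, an aminopeptidase of the brush border, was between 0 and 0.08 FPKM, and ALPL, alkaline phosphatase, between 0.44 and 0.86 FPKM. SLC7A9, the light chain of the cystine carrier, reached 0.12 FPKM, and SLC13A3, a dicarboxylate carrier, 0.09 FPKM. The kept members nearest the threshold of 1 FPKM were AMN at a mean of 1.18 and then SLC4A4 at 2.98 FPKM. The lost members nearest to it were ALPL at 0.623 and AQP1 at 0.498 FPKM.

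The kept genes spanned a wide range of levels. PAX8, a transcription factor of kidney development that stays on in adult tubules, was the highest at a mean of 344 FPKM, above 98.0% of all genes in the table. There were 12 members between 10 and 100 FPKM, among them the glutathione-degrading enzyme gene GGT1, the urea and arginine cycle gene ASS1, the inositol oxygenase gene MIOX, the kidney cadherin gene CDH16 and the scaffold gene PDZK1. Another 10 lay between 1 and 10 FPKM. All 4 members of the further metabolic group (GATM, ASS1, KHK and MIOX) and 4 of 5 of the group of transcription factors and kidney cadherin were kept. The share kept, 60.5% of members, stood beside 61.0% of all genes in the table. Of the 14 members of the solute carrier (SLC) family, 7 were kept, beside 58.0% of all 367 SLC genes.

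Regulators of the segment were kept and lost side by side. HNF4G, a relative of the lost gene HNF4A, was between 1.53 and 2.41 FPKM. PAX2, an early kidney factor, was between 2.2 and 4.44 FPKM, and LHX1, a factor of early nephron patterning, between 24.56 and 34.16 FPKM. None of PAX8, PAX2, LHX1 and HNF4G passed the test between groups. Their log2 differences were 0.07 for PAX8 (95% interval -0.11 to 0.26), 0.12 for PAX2 (-0.44 to 0.68), 0.18 for LHX1 (-0.09 to 0.45) and 0.02 for HNF4G (-0.44 to 0.48).

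Because HNF4 factors act on many of these genes, the RefSeq promoter windows were searched for HNF4 motifs (GRCh38.p14, 250 bases before to 50 after the start, both strands). There were 30 of 38 members with a window, 18 kept and 12 lost, and SLC22A8, SLC13A3, SLC3A1, FXYD2, PCK1, KHK, LHX1 and CDH16 had none. The HNF4 motif CAAAGTCCA was in 1 window of a kept member, beside 0.359% of all windows, and the related form CAAAGGTCA in 1 of a lost member, beside 0.41%. Both matches are shown so that the kept and the lost member can be read side by side, 5′ to 3′ on the strand of the gene, with the matched letters in capitals.
PDZK1 (kept, match begins 5 bases before the start and runs past it, chr1:145707389-145707413, minus strand): tctttgttCAAAGTCCAgtgagttg
CUBN (lost, match begins 220 bases before the start, chr10:17130015-17130039, minus strand): tactgtttCAAAGGTCAaatagata
A match is a string of letters and not a measured binding site, and nothing is drawn from a window without one.

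**Figure D2:**
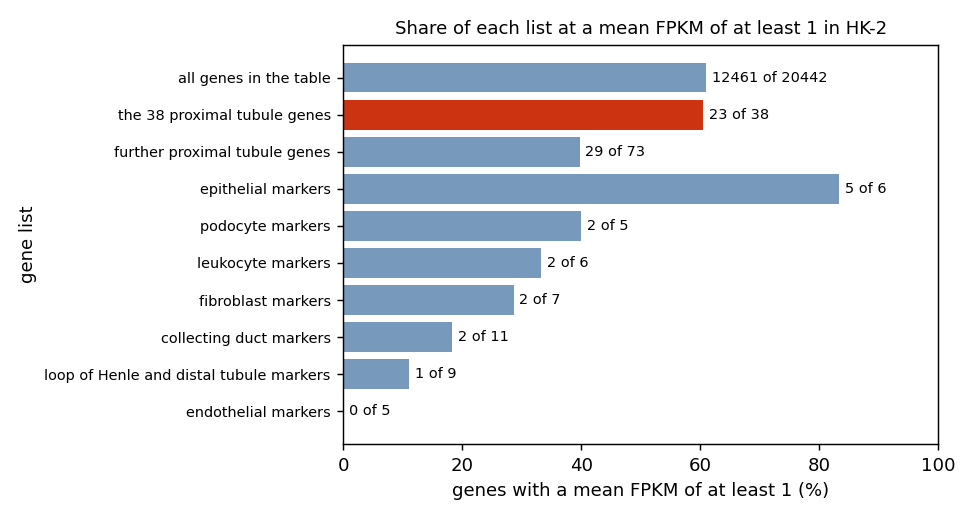
Percent of each list's genes whose FPKM averaged 1 or more across the HK-2 libraries, with the counts beside each bar. The 38 proximal tubule genes (23 kept) sit near the share of all genes, with 29 of 73 further proximal tubule genes and 0 of 5 endothelial markers below them.

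The second question was which kept members differed between the groups. Values were compared as log2(FPKM + 0.1) with limma, and the p-values were adjusted over all 12461 genes tested, of which 24.4% passed an adjusted p of 0.05. Of the 23 kept members, 4 were lower in the libraries labelled overexpression (DPP4, PCK2, SLC37A4 and CDH16), beside 13.1% of all genes tested. GGT1 alone was higher, beside 11.3% of all genes. Together 21.7% of kept members passed, a share near that of all genes. Over the alternatives, 10.1% to 34.1% of all genes and 14.3% to 31.2% of members passed. The share was 15.9% of all genes and 21.7% of members with the median shift of neighbouring genes removed. It was 14.7% and 21.7% without control replicate 1 or without overexpression replicate 2, 10.1% and 17.4% without control replicate 2, and 13.6% and 17.4% without overexpression replicate 3. Nothing particular to the members is read from these shares. The median log2 difference of kept members was 0.03, beside -0.01 over all genes tested, and the median absolute difference was 0.18 for both. No kept member reached a 2-fold change, beside 1.11% of all genes tested that passed with one, and the 95% interval lay inside 1 on the log2 scale for 22 of 23, with AMN the exception.

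**Figure D3:**
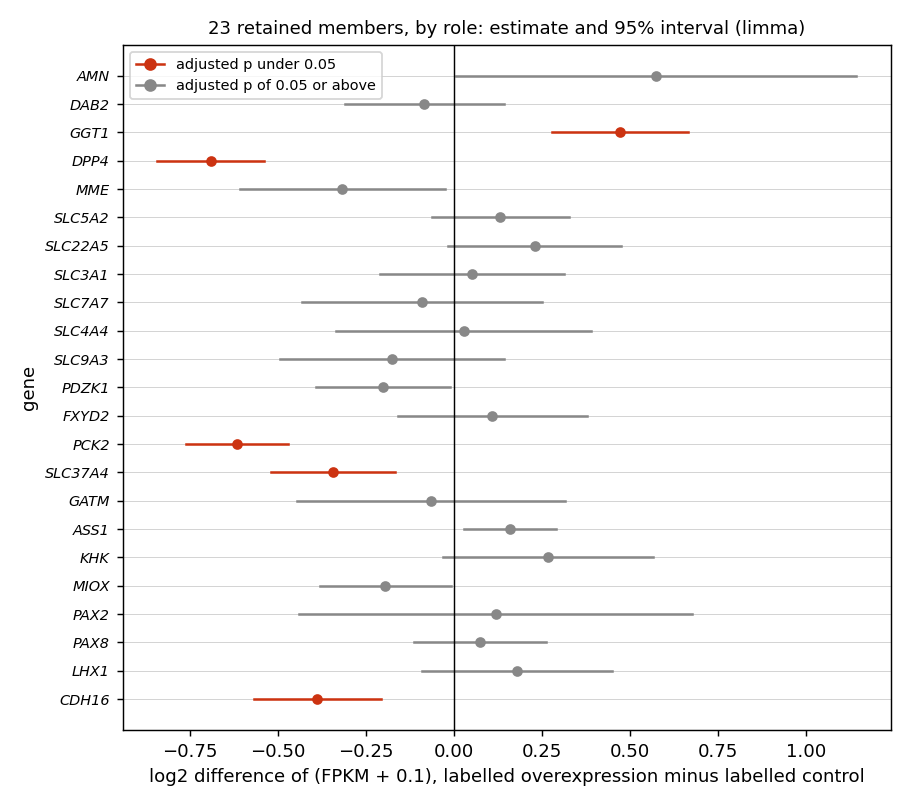
Log2 difference of (FPKM + 0.1), labelled overexpression minus labelled control, with its 95% limma interval, for the 23 kept genes in the order of their roles. Red marks the 5 genes past an adjusted p of 0.05, with DPP4 the lowest at -0.69, and AMN has the widest interval, 0.006 to 1.14.

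Brush border enzymes moved in both directions. DPP4, a dipeptidyl peptidase that cuts N-terminal dipeptides from peptides such as the incretin hormones, was at 72.63, 67.28 and 63.52 FPKM in control libraries and at 41.22, 41.55 and 43.07 FPKM in libraries labelled overexpression. The groups were far apart, and the libraries labelled overexpression lay within a narrow range. DPP4 (gene ID 1803, GRCh38.p14, chr2:161992245-162074215) fell 1.61-fold, with group means of 67.8 ± 4.58 and 41.9 ± 0.987 FPKM (SD, n = 3 each; log2 difference -0.69, SE 0.068, limma adjusted p = 2.98e-04). It passed in all 16 alternative fits, at -0.74 to -0.57.

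GGT1, which starts the breakdown of extracellular glutathione, was at 68.67, 66.29 and 79.13 FPKM in control libraries and at 90.17, 107.09 and 99.74 FPKM in those labelled overexpression. The lowest library labelled overexpression was above the highest control library. GGT1 (gene ID 2678, chr22:24583750-24628996) rose 1.39-fold, with group means of 71.4 ± 6.83 and 99.0 ± 8.48 FPKM (SD, n = 3 each; log2 difference 0.47, SE 0.087, limma adjusted p = 0.00576). GGT1 has near-identical copies, and how reads shared with them were treated beyond keeping unique alignments is not given in the sources used here. It passed in all 16 alternative fits. Of the relatives in the table, GGTLC1, GGTLC2, GGTLC3 and GGT6 reached at most 0.08 FPKM, GGT5 0.26 FPKM, and GGT7 had a log2 difference of 0.13 that did not pass (limma adjusted p = 0.261).

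MME, the peptidase neprilysin, was at 4.53, 4.3 and 4.26 FPKM in control libraries and at 3.71, 3.74 and 3.04 FPKM in libraries labelled overexpression. Its groups did not overlap, yet the difference did not pass (log2 difference -0.32, 95% interval -0.61 to -0.03, limma adjusted p = 0.102). In all, the groups did not overlap for 11 of 23 kept members, beside 42.1% of all genes tested. Of these 11, 4 were higher (19.6% of all genes tested) and 7 were lower (22.5%).

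Both kept genes of glucose production fell. PCK2, the mitochondrial PEP carboxykinase, was at 97.41, 105.26 and 110.59 FPKM in control libraries and at 69.48, 66.81 and 67.93 FPKM in those labelled overexpression. No library of a group came near the other group. PCK2 (gene ID 5106, chr14:24094171-24104125) fell 1.53-fold, with group means of 104 ± 6.63 and 68.1 ± 1.34 FPKM (SD, n = 3 each; log2 difference -0.61, SE 0.065, limma adjusted p = 4.13e-04), and passed in all 16 alternative fits. PCK1, its cytosolic counterpart and the form used for glucose production in the kidney, was among the lost genes. PCK2 lies inside NRL on the opposite strand, which was between 2.05 and 3.51 FPKM and did not pass (limma adjusted p = 0.392).

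SLC37A4, the glucose-6-phosphate carrier of the endoplasmic reticulum, was at 18.79, 20.19 and 17.71 FPKM in control libraries and at 14.93, 15.25 and 14.38 FPKM in those labelled overexpression. SLC37A4 (gene ID 2542, chr11:119024112-119030877) fell 1.27-fold (log2 difference -0.34, SE 0.079, limma adjusted p = 0.0136). The groups were apart, but the call rested on single libraries, with an adjusted p of 0.0747 when control replicate 2 was left out and 0.0571 when overexpression replicate 3 was. In RefSeq its end overlaps TRAPPC4 on the opposite strand only from position 119024112 to 119024134. The libraries were stranded, but use of strand in counting is not given in the sources used here. TRAPPC4 was between 57.96 and 67.52 FPKM and did not pass (log2 difference -0.09, limma adjusted p = 0.381).

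CDH16, kidney-specific cadherin, was at 24.55, 24.9 and 28.62 FPKM in control libraries and at 20.5, 19.0 and 20.01 FPKM in those labelled overexpression. CDH16 (gene ID 1014, chr16:66908122-66918885) fell 1.31-fold, with group means of 26.0 ± 2.26 and 19.8 ± 0.765 FPKM (SD, n = 3 each; log2 difference -0.39, SE 0.081, limma adjusted p = 0.00985), and it passed in all 16 alternative fits. PAX8, known to activate CDH16 in rat thyroid cells, was at 317.97, 326.56 and 359.44 FPKM in control libraries and at 321.14, 394.39 and 343.71 FPKM in those labelled overexpression, with groups that overlapped.

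**Figure D4:**
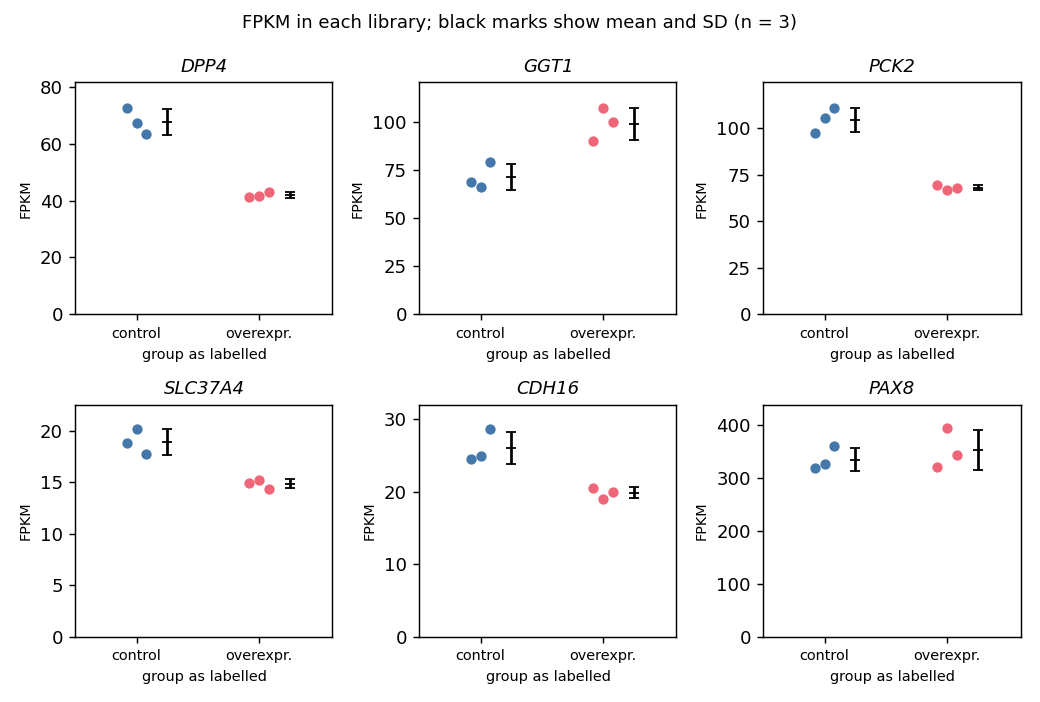
FPKM of DPP4, GGT1, PCK2, SLC37A4, CDH16 and PAX8 in each library, on axes that start at 0, with the mean and SD of each group as labelled (n = 3) in black. The groups are apart for the 5 genes that passed and overlap for PAX8, which spans 317.97 to 394.39 FPKM.

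The endocytic genes that remained did not pass. DAB2, the adaptor that links megalin to the clathrin coat, was between 11.53 and 14.66 FPKM in all libraries (log2 difference -0.08, 95% interval -0.31 to 0.14, limma adjusted p = 0.569). AMN, the membrane anchor of cubilin, was at 0.74, 0.88 and 1.16 FPKM in control libraries and at 1.39, 1.14 and 1.75 FPKM in libraries labelled overexpression. The groups overlapped by 1 library, and AMN reached the mean of 1 FPKM only through the libraries labelled overexpression (limma adjusted p = 0.124). Both receptors they serve, megalin and cubilin, were at or near 0.

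The kept transporters did not pass, with the exception of SLC37A4. SLC5A2, the kidney glucose carrier SGLT2 and the target of gliflozin drugs, was at 15.92, 16.53 and 19.19 FPKM in control libraries and at 19.35, 18.25 and 18.84 FPKM in those labelled overexpression (log2 difference 0.13, 95% interval -0.06 to 0.33, limma adjusted p = 0.288). The groups overlapped. SLC5A2 shares its 3′ end with RUSF1 on the opposite strand, which was at 57.5 ± 1.55 and 65.9 ± 0.954 FPKM (SD, n = 3 each) and rose (log2 difference 0.20, limma adjusted p = 0.0348). Without strand in the counting, reads of the overlapping stretch cannot be assigned to either gene, so the level of SLC5A2 is uncertain.

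SLC22A5 was at 6.93, 5.83 and 6.42 FPKM in control libraries and at 7.09, 8.24 and 7.21 FPKM in those labelled overexpression, apart but not past the test (log2 difference 0.23, limma adjusted p = 0.151). SLC3A1, the heavy chain of the cystine carrier, was between 4.02 and 4.46 FPKM, while its light chain SLC7A9 was lost. SLC7A7, a basolateral carrier of cationic amino acids, ranged from 4.85 to 7.53 FPKM within the control group, wider than between group means. SLC9A3, the apical sodium-proton exchanger NHE3, lay between 4.84 and 7.47 FPKM, and SLC4A4, the basolateral sodium bicarbonate carrier, between 2.51 and 3.37 FPKM. Their log2 differences were 0.05 for SLC3A1 (95% interval -0.21 to 0.31), -0.09 for SLC7A7 (-0.43 to 0.25), -0.18 for SLC9A3 (-0.50 to 0.14) and 0.03 for SLC4A4 (-0.33 to 0.39).

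PDZK1, a scaffold that holds apical carriers in place, was at 18.81, 16.29 and 16.21 FPKM in control libraries and at 14.87, 14.29 and 15.35 FPKM in those labelled overexpression. The groups did not overlap, and the difference did not pass (log2 difference -0.20, limma adjusted p = 0.11). FXYD2, the gamma subunit of the sodium pump, was between 11.96 and 15.99 FPKM (log2 difference 0.11, limma adjusted p = 0.526). Its row overlaps the read-through gene FXYD6-FXYD2, which was between 0.47 and 1.58 FPKM.

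Metabolic genes outside glucose production did not pass either. ASS1, argininosuccinate synthase, was at 52.17, 51.77 and 54.36 FPKM in control libraries and at 58.46, 59.45 and 58.88 FPKM in libraries labelled overexpression. Its libraries were close within each group and apart between groups, with a log2 difference of 0.16 (95% interval 0.03 to 0.29, limma adjusted p = 0.0711). ASS1 passed only without control replicate 3 (adjusted p = 0.0332), as did LHX1 (0.0361). MIOX, which starts the breakdown of inositol in the kidney, was at 34.23, 36.22 and 39.84 FPKM in control libraries and at 32.92, 29.38 and 34.02 FPKM in those labelled overexpression (log2 difference -0.19, limma adjusted p = 0.112). KHK, fructokinase, was at 3.52, 2.89 and 3.0 FPKM in control libraries and at 3.67, 3.95 and 3.74 FPKM in those labelled overexpression. The KHK groups did not overlap, and the difference did not pass (log2 difference 0.27, limma adjusted p = 0.164). GATM, the first enzyme of creatine synthesis, lay between 3.51 and 5.21 FPKM (log2 difference -0.06, limma adjusted p = 0.811).

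Members below 1 FPKM entered the test only when no filter was used. Then 35 members were tested, the 3 listed at 0 being left out, and 1 was higher and 4 were lower, the same numbers as with the filter. No fold is given for a lost member.

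A further list of 73 proximal tubule genes was read beside the members. Of these, 29 were kept, 44 were below 1 FPKM and 9 of those were listed at 0 in all libraries, including SLC5A12, SLC22A12, SLC6A19, CYP4A11 and G6PC1, which encode lactate, urate and neutral amino acid carriers, a fatty acid hydroxylase and glucose-6-phosphatase. Among the 29 tested, 6 rose and 8 fell (48.3%, beside 24.4% of all genes tested), with a median log2 difference of -0.08. The count of rises was 3 once the median shift of neighbouring genes was removed. The lists were chosen with earlier results of these data known, and no test compares them with other genes.

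ABCB1, the drug efflux pump P-glycoprotein of the brush border, was at 33.21, 33.87 and 30.6 FPKM in control libraries and at 13.07, 12.55 and 12.59 FPKM in those labelled overexpression. It fell 2.54-fold (log2 difference -1.35, SE 0.073, limma adjusted p = 1.47e-05) and passed in all 16 alternative fits. CYP27B1, which makes active vitamin D in the proximal tubule, was at 2.13, 2.36 and 2.61 FPKM and then at 3.81, 4.61 and 4.04 FPKM, a rise of 1.72-fold (limma adjusted p = 0.00594). CYP24A1, which breaks active vitamin D down, was at 29.27, 27.59 and 29.36 FPKM and then at 23.25, 22.95 and 22.81 FPKM, a fall of 1.25-fold (limma adjusted p = 0.00916). Both vitamin D enzymes had groups that did not overlap, in opposite directions, and passed in every alternative fit in which they were tested.

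SLC17A3, a urate and phosphate carrier, fell from 2.26 ± 0.145 to 1.20 ± 0.326 FPKM (SD, n = 3 each, log2 difference -0.89, limma adjusted p = 0.0205). With control replicate 1 left out its adjusted p was 0.0678, with control replicate 2 left out 0.0709, and with overexpression replicate 3 left out 0.0576. NAPSA, an aspartic protease, had a log2 difference of -0.85 (limma adjusted p = 0.0424) and overlapping groups. The call for NAPSA was lost when a library was left out: control replicate 1 gave an adjusted p of 0.144, control replicate 2 gave 0.138, overexpression replicate 1 gave 0.0953, and overexpression replicate 2 gave 0.123. It was also lost with no filter (0.0729) and in limma with no variance trend (0.0512). MAF, a transcription factor of the proximal tubule, fell 1.27-fold (limma adjusted p = 0.0174), with an adjusted p of 0.0697 when control replicate 2 was left out and 0.0743 when overexpression replicate 3 was. Among partners of the members, SLC9A3R1, now named NHERF1, the scaffold that anchors NHE3 and the phosphate carrier, rose 1.30-fold (limma adjusted p = 0.00427). This rise did not pass once the median shift of neighbouring genes was removed (adjusted p = 0.348). LRPAP1, the chaperone of megalin, rose 1.18-fold (limma adjusted p = 0.0268), and its adjusted p was 0.954 with that shift removed and 0.0653 with no variance trend. The LRPAP1 call was also lost when control replicate 1 or 2 was left out (adjusted p = 0.0885 and 0.115), and when any library labelled overexpression was (0.053, 0.0611 and 0.101 for replicates 1, 2 and 3).

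**Figure D5:**
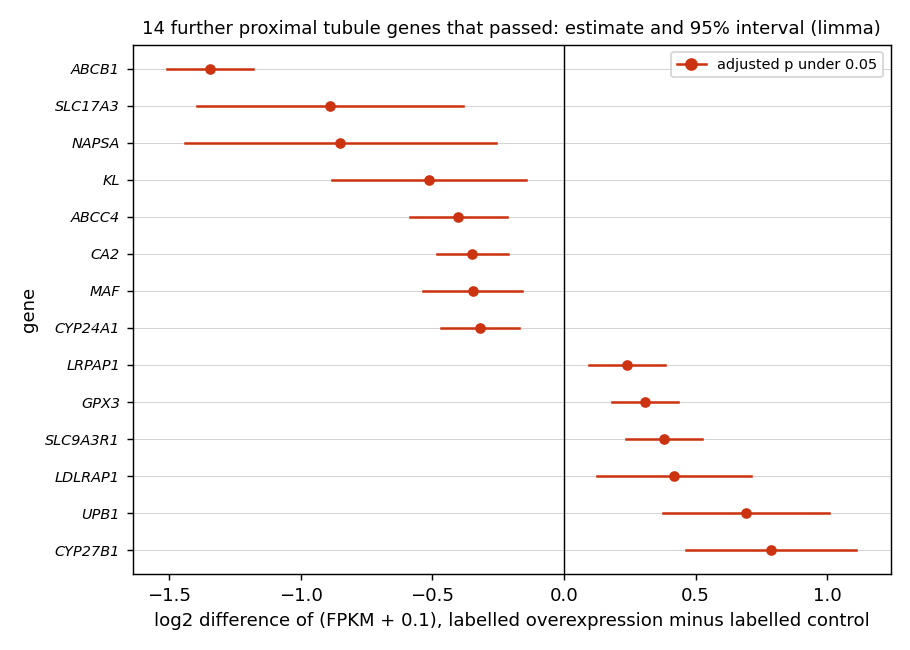
Log2 difference of (FPKM + 0.1), labelled overexpression minus labelled control, with its 95% limma interval, for the 14 of 29 further proximal tubule genes past an adjusted p of 0.05, ordered by estimate. The 8 genes that fell and the 6 that rose run from ABCB1 at -1.35 to CYP27B1 at 0.79.

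Markers of other cells were read for the same libraries. UMOD, AQP2, WT1 and KDR, of the loop, collecting duct, podocyte and endothelium, were listed at 0 in all 6, and the pan-leukocyte gene PTPRC was at most 0.04 FPKM. Endothelial markers had 0 of 5 genes kept, loop and distal markers 1 of 9 (CLDN16, 0.84 to 1.79 FPKM) and collecting duct markers 2 of 11 (ATP6V0D2, which fell with a limma adjusted p of 0.0309, and AVPR2, at 0.68, 0.91 and 0.47 FPKM in controls and 0.95, 1.94 and 1.53 FPKM in libraries labelled overexpression, which reached the mean of 1 FPKM only through the latter). Their sums did not separate the groups. Podocyte markers had 2 of 5 kept, of which SYNPO did not pass and PODXL fell 1.75-fold (limma adjusted p = 0.00324), with sums of 33.87 to 41.4 FPKM in libraries labelled overexpression and 30.85 to 41.52 FPKM in controls.

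Sums of 3 marker lists did separate the groups. Fibroblast markers, 2 of 7 kept, summed to 17.38 to 17.58 FPKM in libraries labelled overexpression and 14.57 to 16.25 FPKM in controls, and COL1A1 rose 1.56-fold (limma adjusted p = 0.0116) while LUM did not pass. Leukocyte markers, 2 of 6 kept, summed to 195.14 to 218.62 FPKM and 166.53 to 183.37 FPKM, nearly all from CD68, a lysosomal gene also expressed outside leukocytes, which did not pass (limma adjusted p = 0.0534). Epithelial markers, 5 of 6 kept, summed to 980.41 to 998.72 FPKM and 1007.57 to 1073.95 FPKM. Within this list KRT18 fell 1.15-fold and KRT7 1.28-fold (limma adjusted p = 0.0233 and 0.0117). KRT19 was at 153.29, 148.05 and 166.89 FPKM in controls and at 178.7, 174.95 and 174.97 FPKM in libraries labelled overexpression. Its groups were apart in the opposite direction, and it did not pass (limma adjusted p = 0.0636). KRT8 was the highest epithelial marker at 475.54 to 534.79 FPKM, with groups that overlapped, and CDH1, E-cadherin, was at most 0.07 FPKM. The part of these markers in the differences of the members was not tested.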

How the data were processed

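RNA sequencing of 6 HK-2 libraries was analysed. Per the methods and labels, poly(A)-selected, stranded, paired-end libraries were trimmed with FASTX-Toolkit, aligned to GRCh38 with HISAT2, and uniquely mapped reads gave the FPKM values deposited by the authors, 1 column per library. ComBat_seq is named for batches, without saying whether it entered this table, and DESeq2 for the study's own test. Annotation and counting tool: not given in the sources used here. Titles of the samples gave each library its group and number.

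The two-sided test was limma 3.58.1 under R 4.3.3, with a variance trend, on log2(FPKM + 0.1) of the 12461 genes that averaged 1 FPKM or more, and p-values were adjusted by the Benjamini-Hochberg method across them. A fold change on the log2 scale with a pseudocount is too small for low genes. FPKM does not correct for library makeup. Depth was sought as whole fragments in low values of genes with 1 exon. At the best depth, 43.8% to 48.0% of values lay within 0.15 of a whole number. The share at any single depth is 30.0% if remainders are even, and a search for the best depth gives more. The depth of each library was therefore not recovered from the FPKM values. The study's supplement lists read totals by medium and group, which the labels do not match to these libraries. No counting interval is given. Gene IDs and coordinates came from RefSeq GRCh38.p14, which matched 99.6% of symbols and 38 of 38 members. Promoter sequences are also from RefSeq. Figures used matplotlib 3.10.9 in Python 3.11.15.

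The members and lists were chosen with earlier results of these data known. All members are named, as are up to 4 called genes with the largest change of each further list and the highest gene of small lists. Other named genes are partners, overlapping genes or regulators chosen after their values were seen. Alternatives were pseudocounts of 1 and 0.01, no filter, a filter at 5 FPKM, median-of-ratios, TPM and quantile scaling, limma without trend, a replicate block, removal of the median shift of neighbours in windows of 10 Mb, and leaving out each library. Promoters were searched in 1 window per gene. Some genes of the lists, which count in the totals, and other motifs searched are not reported here.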

Additional observations from a re-analysis of the deposited data

How the results depend on the processing

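In all 16 alternatives HNRNPF was lower in libraries labelled overexpression and passed (log2 difference -0.82 to -0.63). The 1 higher and 4 lower kept members were found in all 10 alternatives that kept every library, and leaving out a library gave 1 to 3 higher and 3 to 4 lower. Over all genes, 1410 were higher and 1629 lower. With the shift of neighbours removed these were 912 and 1067, and leaving out a library gave 543 to 2071 higher and 716 to 2173 lower. With TPM the split was 1423 higher and 1239 lower. For the further proximal tubule genes, 6 higher and 8 lower became 3 and 7 with the shift of neighbours removed, 5 and 5 with the filter at 5 FPKM, and 4 to 6 and 4 to 8 without a library. The cause was not tested. Kept members were 24 at a mean of 0.5 FPKM, 16 at 5 FPKM and 22 with 1 FPKM in every library.

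With the replicate block, 1469 genes were higher and 1646 lower and the members' counts did not change. The correlations of deviations between libraries with the same number were 0.091, -0.086 and 0.006. Of 6 libraries, 2 correlated best with their own number, so no pairing by number was visible. With 3 libraries per group, these values cannot exclude that libraries of the same number were made together. The direction of some members that did not pass turned. Removing the shift of neighbours turned DAB2 (0.20), SLC7A7 (0.10) and SLC4A4 (-0.084). Leaving out a library turned SLC7A7 (-0.27 to 0.044), SLC4A4 (-0.058 to 0.15), GATM (-0.23 to 0.047), PAX2 (-0.12 to 0.34) and PAX8 (-0.0085 to 0.14). Of 361 values of kept members under alternatives, 345 had the same direction and the same call. Calls of the markers of other cells and of PDZK1IP1 were not rerun. The limits set by sequencing depth were not measured, since the depth of each library was not recovered from the FPKM values.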

Other observations

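PDZK1IP1, which encodes a small membrane protein that binds the scaffold PDZK1, was chosen after its values were seen. It was at 1815.43, 1773.66 and 1637.41 FPKM in control libraries and at 1276.71, 1159.8 and 1224.52 FPKM in libraries labelled overexpression. Its groups were apart, and it fell 1.43-fold (log2 difference -0.51, SE 0.070, limma adjusted p = 0.00153). PDZK1 itself was at a mean of 17.1 and 14.8 FPKM.

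GGT1 and UPB1, an enzyme of pyrimidine breakdown on the further list, lie 55.4 kb apart on chromosome 22, and both rose. UPB1 was at 4.33, 4.7 and 5.36 FPKM in control libraries and at 9.35, 6.71 and 7.51 FPKM in those labelled overexpression (1.62-fold, limma adjusted p = 0.00886). Within 300 kb of GGT1, 6 other genes were tested, and UPB1 was the 1 that rose while SPECC1L was the 1 that fell (log2 difference -0.33, limma adjusted p = 0.0217). GUCD1 and SNRPD3, which lie between UPB1 and GGT1, had log2 differences of 0.17 and -0.25 and did not pass. LRRC75B, inside the RefSeq span of GGT1, was at -0.10 and did not pass. These values were chosen after the results were seen.

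Over all SLC genes, 213 of 367 had a mean FPKM of at least 1, and 20 were higher and 28 lower in libraries labelled overexpression (22.5%, beside 24.4% of all genes tested).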
